A study of Sus scrofa with 2 samples.

Results

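PON3/CLDN10 cells are epithelial cells of pig endometrium that carried transcripts of PON3, which encodes a lactone-hydrolysing paraoxonase, together with CLDN10, which encodes a tight-junction claudin. They were chosen in the embryo loss library among barcodes with at least 500 unique molecular identifiers (UMIs, each a captured transcript) and at least 300 genes. A barcode had to hold at least 1 UMI of PON3, at least 2 of CLDN10 and at most 1 of CYP26A1. Its PON3 and CLDN10 UMIs together also had to exceed the sum of JPH4 and JAKMIP1 and the sum of OPTC, CCK and TMEM100. This left 789 of 10797 kept barcodes of that library (7.31%, exact Clopper-Pearson 95% interval 6.82 to 7.82%), of 19784 deposited barcodes in both libraries. The values of these 8 genes chose the cells and are given below as a description.

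The uterine lining has a luminal epithelium that faces the cavity and glands that open into it, and both take up, secrete and seal. Luminal epithelium of rodents makes the hedgehog ligand IHH under progesterone, and the ligand acts on the stroma below, while the transcription factor FOXA2 is known for uterine glands. Claudins set which ions pass between the cells, and S100G, also called calbindin-D9k, carries calcium inside them.

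The data were single-cell 3′ transcript counts from endometrium of 2 sows, both Yorkshire and 3 years old. The sow with embryo loss (EL) had an abortion and later failed to conceive over 3 matings by artificial insemination in a row, and her stage at sampling is not given. The sow with embryo implantation (EIS) was at day 30 of gestation after successful artificial insemination. Each group was 1 sow and 1 library, so library, animal, stage and pregnancy status cannot be told apart, and no test across animals exists. All intervals below are at 95% and cover counting error only.

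The EL library held 10936 barcodes and 43302286 UMIs, of which 10797 barcodes were kept, and the EIS library 8848 barcodes and 36069473 UMIs, of which 8669 barcodes were kept. The 2 libraries shared 27 barcode sequences, and 0 of the PON3/CLDN10 cells had one of them. Of 26881 features, 16128 carried no gene symbol and held 26.69% of EL and 22.97% of EIS UMIs, so a gene without a symbol is not named here. Another 3 sets of EL epithelial cells served for comparison, each defined by raw UMIs after the same depth filter. JPH4/JAKMIP1 cells (2413) had at least 3 UMIs of that pair, OPTC/CCK/TMEM100 cells (536) had at least 3 UMIs of that trio, and in each the defining sum exceeded the competing sums with at most 1 UMI of CYP26A1. CYP26A1 cells (1686) had at least 2 UMIs of CYP26A1, the retinoic acid hydroxylase. These sets shared no cell with the PON3/CLDN10 cells.

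The PON3/CLDN10 cells were deeply sampled. Their median was 5286 UMIs (501 to 26553) and 2323 genes, against 2746 UMIs in JPH4/JAKMIP1 cells, 4816 in OPTC/CCK/TMEM100 cells, 3414 in CYP26A1 cells and 2078 in all other EL barcodes, and they held 11.57% of the kept EL UMIs. The rules use raw UMIs, which depend on depth, and their part in these medians was not tested. Levels are therefore given as UMIs scaled to the same total in every summed set (CPM, the usual depth-scaled count), and shares of cells with a UMI after thinning every cell to 2000 UMIs, which 737 of the PON3/CLDN10 cells allowed and 52 did not.

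The epithelial label was checked against marker lists of 17 classes. Of 10 epithelial markers 4 were in the table, and all 4 were detected, with a summed level of 2463 CPM in PON3/CLDN10 cells and 2903 CPM in all other EL barcodes. KRT8 stood at 1182 CPM, CLDN7 at 600 CPM and KRT18 at 528 CPM. Markers of T or NK cells summed to 24.5 CPM in PON3/CLDN10 cells, against 8208 CPM in the 283 EL barcodes with at least 5 such UMIs, and 7 PON3/CLDN10 cells also met that limit. The vascular endothelial list summed to 24.7 CPM in PON3/CLDN10 cells and 24.5 CPM in all other EL barcodes. Of 10 stromal markers 6 were in the table and 5 were detected in PON3/CLDN10 cells, with HAND2 at 0, and they summed to 488 CPM in PON3/CLDN10 cells and 177 CPM in all other EL barcodes. Most of that stromal sum was DCN, at 359 CPM.

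The defining transcripts were low in number in most cells. PON3 ranged over 1 to 10 UMIs with a median of 2, and 316 of the 789 cells had exactly 1. CLDN10 ranged over 2 to 33 UMIs with a median of 6. CYP26A1 was at 0 in 700 cells and at 1 in 89. OPTC was at 0 in 626 cells, CCK, which encodes the peptide hormone cholecystokinin, at 0 in 735, and TMEM100, which encodes a small membrane protein, at 0 in 432. JPH4, which encodes a junctophilin that ties the plasma membrane to the endoplasmic reticulum, was not absent: its median was 3 UMIs, its highest value 21, and 51 cells had none. The margin by which PON3 and CLDN10 exceeded the larger competing sum had a median of 3 UMIs, and 120 cells passed by exactly 1.

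The rule cuts a continuous range of cells. Of the 1374 barcodes that met the PON3, CLDN10 and CYP26A1 limits, 565 were left out because JPH4 and JAKMIP1 together equalled or exceeded PON3 and CLDN10. In 102 barcodes, some of them among these 565, PON3 and CLDN10 were tied with the larger competing sum. In the 120 cells that passed by 1 UMI, IHH stood at 217 CPM, S100G at 160 CPM, FAM162B at 1407 CPM, DCN at 221 CPM and OGDH at 702 CPM. In the 102 tied cells IHH stood at 301 CPM, S100G at 137 CPM, FAM162B at 1226 CPM, DCN at 223 CPM and OGDH at 828 CPM. The cells on either side of this limit were thus close in DCN, and IHH was lower on the inside of it. The 65 cells with exactly 2 CLDN10 UMIs had S100G at 214.5 CPM, and the 56 barcodes with exactly 1 that met the other limits had it at 44.3 CPM, on medians of 2836 and 1162 UMIs per cell.

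In the EL library 14748 genes had at least 30 UMIs in PON3/CLDN10 cells and all other EL barcodes together. Of these 509 were at least 2-fold higher in PON3/CLDN10 cells (3.45%) and 2432 at least 2-fold lower (16.5%). Genes past this fold are called higher or lower from here on, and no p-value is attached. Among genes with a symbol and at least 100 CPM in the higher set, the 15 leading higher ones had ratios of 2.67 to 4.50 and the 10 leading lower ones were 26.1-fold to 91.6-fold lower. Cell cycle genes of lower abundance had larger ratios and are given with the dividing cells.

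DCN, which encodes decorin, a small proteoglycan of the extracellular matrix made mainly by fibroblasts, led the higher genes of at least 100 CPM. It stood at 359 CPM in PON3/CLDN10 cells, 155 in JPH4/JAKMIP1 cells, 16.8 in OPTC/CCK/TMEM100 cells, 22.0 in CYP26A1 cells and 79.8 in all other EL barcodes, a ratio of 4.50 against the last (4.24 to 4.77). After thinning, 33.4% of PON3/CLDN10 cells had a DCN UMI, against 15.0% of JPH4/JAKMIP1 cells and 2.50% of OPTC/CCK/TMEM100 cells. As a background, shares are also given for T or NK barcodes that met none of the 4 epithelial rules. There were 255 of them, with a median of 1364 UMIs, and the 39 that could be thinned give wide intervals. DCN had a UMI in 0 of these 39, which allows a share of up to 9.03% by the exact Clopper-Pearson bound. DCN was spread over 366 of the 789 cells, with 3.98% of its UMIs in the cell that held most.

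H2AFY2, which encodes the histone variant macroH2A2, stood at 116 CPM in PON3/CLDN10 cells and 29.0 CPM in all other EL barcodes, 4.01-fold higher (3.62 to 4.43). ISM1, which encodes the secreted protein isthmin, stood at 146 CPM in PON3/CLDN10 cells and 41.4 CPM in all other EL barcodes, 3.51-fold higher (3.21 to 3.84). LYPD1, which encodes a membrane-anchored protein of the Ly6 family, stood at 295 CPM in PON3/CLDN10 cells, 208 in JPH4/JAKMIP1 cells, 29.7 in OPTC/CCK/TMEM100 cells, 19.6 in CYP26A1 cells and 86.1 in all other EL barcodes. Its thinned share was 44.0% in PON3/CLDN10 cells, 30.8% in JPH4/JAKMIP1 cells and at most 4.69% in the other epithelial sets. In T or NK barcodes it was 0 of 39, which allows up to 9.03%. The shares of the other epithelial sets lay under that limit and could not be told from the background.

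MGP encodes matrix Gla protein, an inhibitor of calcification. It stood at 1914 CPM in PON3/CLDN10 cells, 1533 in JPH4/JAKMIP1 cells, 328 in OPTC/CCK/TMEM100 cells, 182 in CYP26A1 cells and 655 in all other EL barcodes, a ratio of 2.92 against the last (2.85 to 2.99). RAB33A, which encodes a small GTPase of vesicle traffic, was 3.33-fold higher than in all other EL barcodes, LMO2, which encodes a transcriptional cofactor best known from blood development, 3.04-fold, and DAB2, which encodes an endocytic adaptor, 3.01-fold. MAL, which encodes a membrane protein of apical transport in epithelia, was 2.99-fold higher, RASGRP3, which encodes an activator of RAS-family GTPases, 2.75-fold, and EMID1, which encodes a secreted EMI-domain protein, 2.70-fold. In each of these 6 genes the order of the sets was PON3/CLDN10 cells first and JPH4/JAKMIP1 cells second, and RASGRP3 did not differ between them beyond counting error (ratio 1.11, 0.989 to 1.24).

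**Figure D1:**
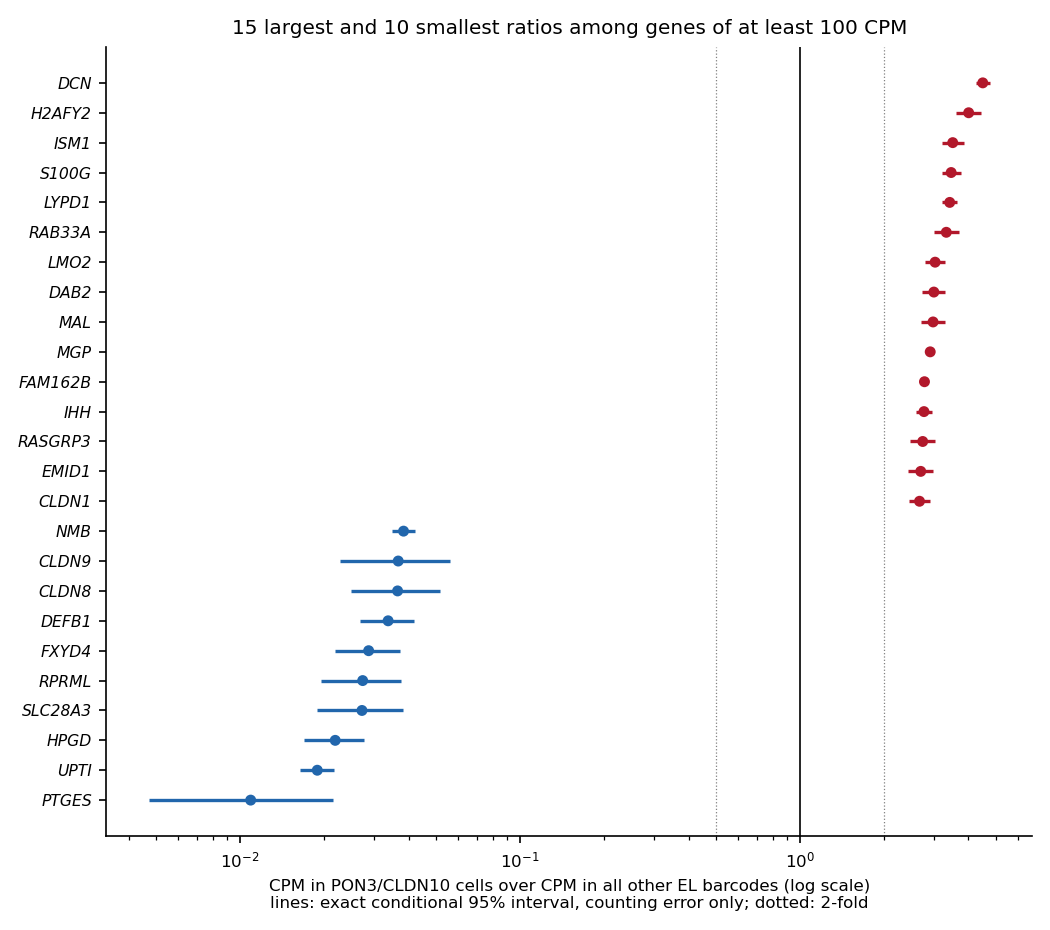
Ratio of CPM in PON3/CLDN10 cells over CPM in all other EL barcodes for the 15 largest and 10 smallest ratios among genes with a symbol that reached 100 CPM and 30 UMIs in the higher set, rule genes left out, on a log axis, with exact conditional 95% intervals from counting and dotted lines at 2-fold. The higher genes lie between 2.67 and 4.50, and the lower genes extend to 0.0109 for PTGES.

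The lower genes were mostly those of CYP26A1 cells. PTGES, which encodes prostaglandin E synthase, had 8 UMIs over all PON3/CLDN10 cells (1.61 CPM), against 147 CPM in all other EL barcodes, 91.6-fold lower (46.5 to 212). HPGD, which encodes the enzyme that inactivates prostaglandins, stood at 13.7 CPM in PON3/CLDN10 cells, 13.2 in JPH4/JAKMIP1 cells, 17.1 in OPTC/CCK/TMEM100 cells, 1712 in CYP26A1 cells and 625 in all other EL barcodes. UPTI, which encodes the pig uterine plasmin/trypsin inhibitor, stood at 42.8 CPM in PON3/CLDN10 cells, 56.8 in JPH4/JAKMIP1 cells, 30.7 in OPTC/CCK/TMEM100 cells, 6237 in CYP26A1 cells and 2268 in all other EL barcodes. For both genes the 3 sets without CYP26A1 were alike in being low, with thinned shares of 2.44% for HPGD and 6.38% for UPTI in PON3/CLDN10 cells. In T or NK barcodes these shares were 7.69% (1.62 to 20.9%) and 5.13% (0.627 to 17.3%), and both intervals hold the shares of PON3/CLDN10 cells.

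The remaining leading lower genes were SLC28A3 (a nucleoside carrier), RPRML, FXYD4 (a regulator of the sodium pump), DEFB1 (an antimicrobial defensin), the claudin genes CLDN8 and CLDN9, and NMB (the peptide neuromedin B), which were 36.7-fold, 36.5-fold, 34.7-fold, 29.6-fold, 27.4-fold, 27.2-fold and 26.1-fold lower than in all other EL barcodes. CLDN8 stood at 6.43 CPM in PON3/CLDN10 cells, 6.08 in JPH4/JAKMIP1 cells, 12.5 in OPTC/CCK/TMEM100 cells and 459 in CYP26A1 cells. NMB stood at 86.2 CPM in PON3/CLDN10 cells, 76.5 CPM in JPH4/JAKMIP1 cells and 1339 CPM in OPTC/CCK/TMEM100 cells, so the last also held it.

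The ligand IHH stood at 264 CPM in PON3/CLDN10 cells (250 to 279), 198 in JPH4/JAKMIP1 cells, 75.8 in OPTC/CCK/TMEM100 cells, 22.8 in CYP26A1 cells and 95.2 in all other EL barcodes. Its ratio was 2.77 against all other EL barcodes (2.60 to 2.96) and 1.33 against JPH4/JAKMIP1 cells (1.24 to 1.43). After thinning, 37.7% of PON3/CLDN10 cells had an IHH UMI, against 30.7% of JPH4/JAKMIP1 cells, 14.6% of OPTC/CCK/TMEM100 cells, 5.65% of CYP26A1 cells and 12.8% of T or NK barcodes (4.30 to 27.4%). That interval holds the shares of OPTC/CCK/TMEM100 and CYP26A1 cells, and the share of PON3/CLDN10 cells lay above it.

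Of 18 hedgehog genes 8 were measured against all other EL barcodes, of which IHH was higher and NR2F2, a nuclear receptor of uterine stroma that IHH induces in mice, was lower, with a median log2 ratio of 0.26 against -0.05 for all genes measured. Among all genes measured 3.45% were higher and 16.5% lower. NR2F2 stood at 5.83 CPM in PON3/CLDN10 cells and 12.98 CPM in all other EL barcodes. DISP1, whose protein releases hedgehog ligands from the cell, stood at 29.1 CPM in PON3/CLDN10 cells, 36.8 in JPH4/JAKMIP1 cells and 8.23 in CYP26A1 cells. GLI3, which encodes a hedgehog transcription factor, stood at 30.7 CPM in PON3/CLDN10 cells, 45.2 in JPH4/JAKMIP1 cells and 4.79 in CYP26A1 cells. The other ligands were near the floor, with SHH at 4.02 CPM in PON3/CLDN10 cells and 4.07 CPM in all other EL barcodes and DHH at 0. GLI1 and GLI2 had 1 UMI each over the PON3/CLDN10 cells.

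S100G stood at 182 CPM in PON3/CLDN10 cells (171 to 194), 119 in JPH4/JAKMIP1 cells, 23.7 in OPTC/CCK/TMEM100 cells, 20.9 in CYP26A1 cells and 52.5 in all other EL barcodes. It was 3.47-fold higher than in all other EL barcodes (3.20 to 3.75) and 1.53 times the level of JPH4/JAKMIP1 cells (1.40 to 1.68). S100G was less widely spread than IHH: 275 of the 789 cells had a UMI, and 12.2% of its UMIs lay in 5 cells. Its thinned share was 19.3% in PON3/CLDN10 cells, 13.4% in JPH4/JAKMIP1 cells, 3.74% in OPTC/CCK/TMEM100 cells and 2.56% in T or NK barcodes (0.0649 to 13.5%).

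Of 37 calcium genes on the list 21 were measured, with 2 higher (S100G and PTHLH), 9 lower and a median log2 ratio of -0.76, beside 3.45% higher, 16.5% lower and a median of -0.05 among all genes measured. PTHLH, which encodes the parathyroid hormone-related peptide, stood at 23.1 CPM in PON3/CLDN10 cells and 5.62 CPM in all other EL barcodes, 4.11-fold higher (3.25 to 5.18), in 96 of the 789 cells. TRPV5, which encodes an epithelial calcium entry channel, stood at 4.82 CPM in PON3/CLDN10 cells, 9.35 in JPH4/JAKMIP1 cells, 63.9 in CYP26A1 cells and 27.3 in all other EL barcodes, 5.66-fold lower than in the last (3.78 to 8.87). S100A10 was 3.13-fold lower than in all other EL barcodes.

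FAM162B, a gene whose protein is little characterised, stood at 1541 CPM in PON3/CLDN10 cells, 1089 in JPH4/JAKMIP1 cells, 832 in OPTC/CCK/TMEM100 cells, 136 in CYP26A1 cells and 553 in all other EL barcodes. It was present in 766 of the 789 cells, and its thinned share was 92.3% in PON3/CLDN10 cells, 83.4% in JPH4/JAKMIP1 cells, 75.5% in OPTC/CCK/TMEM100 cells and 30.8% in T or NK barcodes (17.0 to 47.6%). FAM162B thus marked the 3 sets without CYP26A1, with PON3/CLDN10 cells at the top.

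**Figure D2:**
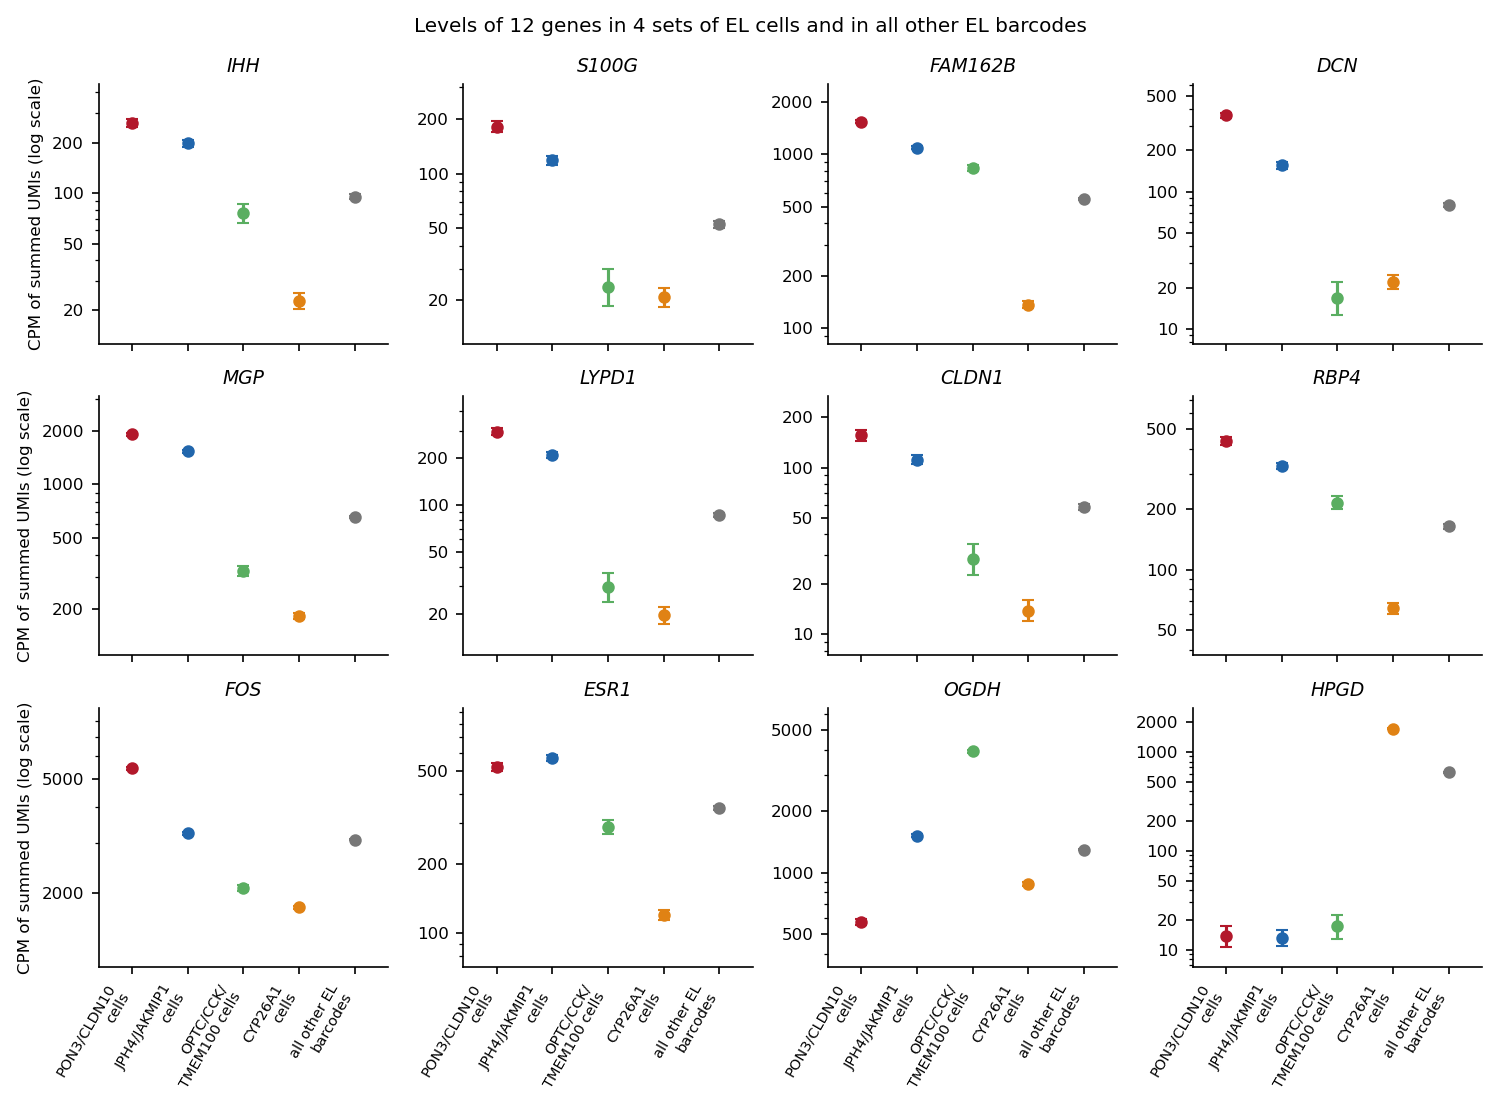
Levels in CPM of summed UMIs (log axes) of 12 genes in PON3/CLDN10 cells, the 3 other epithelial sets and all other EL barcodes, with exact Poisson 95% intervals. IHH, S100G, FAM162B, DCN, MGP, LYPD1, CLDN1, RBP4 and FOS are highest in PON3/CLDN10 cells and next in JPH4/JAKMIP1 cells among the epithelial sets, ESR1 is highest in JPH4/JAKMIP1 cells, OGDH in OPTC/CCK/TMEM100 cells, and HPGD in CYP26A1 cells.

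Of 26 genes of tight junctions 16 were measured against all other EL barcodes, with CLDN1, CLDN5 and CLDN10 higher and CLDN6, CLDN8 and CLDN22 lower. CLDN10 belonged to the rule. Over all genes measured 3.45% were higher and 16.5% lower. CLDN1 stood at 156 CPM in PON3/CLDN10 cells, 111 in JPH4/JAKMIP1 cells, 28.4 in OPTC/CCK/TMEM100 cells, 13.9 in CYP26A1 cells and 58.3 in all other EL barcodes, 2.67-fold higher than in the last (2.46 to 2.90). CLDN7 was near even, at 600 CPM in PON3/CLDN10 cells and 572 CPM in all other EL barcodes. The CLDN5 value came from 1 cell, which held 87.5% of its UMIs among PON3/CLDN10 cells along with 13 UMIs of the endothelial gene PECAM1. Without that cell CLDN5 stood at 1.21 CPM in PON3/CLDN10 cells and 4.55 CPM in all other EL barcodes.

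Luminal and glandular genes were both present. Of 19 luminal genes 15 were measured, with IHH and S100G higher and 6 lower. The median log2 ratio of the luminal list was -0.64, against -0.05 for all genes measured, of which 3.45% were higher and 16.5% lower. MSX1, a homeobox transcription factor of uterine epithelium, stood at 1146 CPM in PON3/CLDN10 cells and 599 CPM in all other EL barcodes (ratio 1.91, 1.86 to 1.97), and MSX2 at 59.3 CPM in PON3/CLDN10 cells and 29.9 CPM in all other EL barcodes (1.99, 1.74 to 2.26). Among the 6 lower ones, LPAR3, which encodes a lysophosphatidic acid receptor, stood at 3.01 CPM in PON3/CLDN10 cells and 21.3 CPM in all other EL barcodes.

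Of 18 glandular genes 11 were measured, with FOXA2 and RBP4 higher and SLPI, ACP5, MUC1, PTGES and TIMP2 lower. All genes measured had 3.45% higher and 16.5% lower, and the median log2 ratio of the glandular list was 0.11 against -0.05. FOXA2 stood at 299 CPM in PON3/CLDN10 cells, 231 in JPH4/JAKMIP1 cells, 125 in OPTC/CCK/TMEM100 cells, 36.8 in CYP26A1 cells and 138 in all other EL barcodes, 2.17-fold higher than in the last (2.05 to 2.31). RBP4, which encodes the retinol carrier of uterine secretions, stood at 437 CPM in PON3/CLDN10 cells, 327 in JPH4/JAKMIP1 cells, 216 in OPTC/CCK/TMEM100 cells, 64.2 in CYP26A1 cells and 164 in all other EL barcodes, 2.66-fold higher than in the last (2.53 to 2.79). SLPI, a protease inhibitor of gland secretion, stood at 85.6 CPM in PON3/CLDN10 cells and 318 CPM in all other EL barcodes, and ACP5, which encodes uteroferrin, at 2.81 CPM in PON3/CLDN10 cells and 59.1 CPM in all other EL barcodes. FOXA2 and IHH, known from different compartments, were thus both higher in these cells, while the gland products SLPI and ACP5 were lower.

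ESR1, the oestrogen receptor, stood at 520 CPM in PON3/CLDN10 cells, 569 in JPH4/JAKMIP1 cells, 287 in OPTC/CCK/TMEM100 cells, 120 in CYP26A1 cells and 347 in all other EL barcodes, a ratio of 1.5 against the last (1.44 to 1.56). PGR, the progesterone receptor, stood at 71.7 CPM in PON3/CLDN10 cells, 78.6 in JPH4/JAKMIP1 cells, 50.8 in OPTC/CCK/TMEM100 cells, 22.4 in CYP26A1 cells and 46.3 in all other EL barcodes. After thinning, 15.5% of PON3/CLDN10 cells and 15.2% of JPH4/JAKMIP1 cells had a PGR UMI, against 5.13% of T or NK barcodes, whose interval (0.627 to 17.3%) holds both. PGR did not differ between PON3/CLDN10 and JPH4/JAKMIP1 cells beyond counting error (ratio 0.912, 0.801 to 1.04). ESR2 was at 0 over the PON3/CLDN10 cells, which allows 0.741 CPM by the exact Poisson upper bound. Of 30 genes of this list 14 were measured, with 0 higher and ESR2, NR3C2 and SULT1E1 lower. This stands beside 3.45% higher and 16.5% lower among all genes measured.

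Of 23 retinoid genes on the list 14 were measured against all other EL barcodes, with RBP4 and the binding-protein genes CRABP1 and CRABP2 higher and RDH10, DHRS3 and CYP26A1 lower, CYP26A1 by the rule. The shares among all genes measured were 3.45% higher and 16.5% lower. CRABP2 stood at 11.65 CPM in PON3/CLDN10 cells and 3.36 CPM in all other EL barcodes. ALDH1A3, a retinoic acid synthesising dehydrogenase, stood at 675 CPM in PON3/CLDN10 cells, 639 in JPH4/JAKMIP1 cells, 231 in OPTC/CCK/TMEM100 cells, 368 in CYP26A1 cells and 383 in all other EL barcodes. ALDH1A1 stood at 590 CPM in PON3/CLDN10 cells and 504 CPM in all other EL barcodes.

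Other lists leaned lower. Of 9 measured prostaglandin genes 0 were higher and PTGS2, PTGES, HPGD, PTGER4 and PLA2G4A were lower, and PTGS2, the inducible cyclooxygenase, was at 0 in PON3/CLDN10 cells against 168 UMIs in all other EL barcodes. Of 23 measured nutrient carriers 1 was higher (SLC7A1, a carrier of basic amino acids) and 13 lower, and of 24 genes of ion and water transport 1 was higher (AQP5, a water channel) and 11 lower. Of 33 measured cytokine and chemokine genes 0 were higher and 15 lower, and of 24 interferon and antigen-presentation genes 0 were higher and 9 lower. T or NK markers summed to 24.5 CPM in PON3/CLDN10 cells and 181 CPM in all other EL barcodes, and their part in the immune lists was not tested. These counts stand beside 16.5% lower among all genes measured.

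The most like set was that of JPH4/JAKMIP1 cells. Of 12370 genes measured between them, 152 were higher in PON3/CLDN10 cells (1.23%) and 744 lower (6.01%), with a median log2 ratio of -0.20 over all genes. With TMM scaling, which moved that median by 0.19, 216 were higher and 457 lower, and without the ciliary and dividing sub-clusters described below 58 were higher and 1265 lower. None of the 11 luminal, 8 hedgehog, 10 steroid or 12 retinoid genes measured was past 2-fold in either direction. Among genes of at least 100 CPM the 6 leading ratios above 1 began with HMGB2, a chromatin protein of dividing cells (2.43). DCN (2.32) and GADD45A (2.25) came next, and DNAJB1 (1.90), UBE2S (1.85) and H2AFY2 (1.80) followed without passing 2-fold. Without the ciliary and dividing sub-clusters HMGB2 had a ratio of 1.14 and UBE2S of 1.19. DCN then had a ratio of 2.46, GADD45A of 2.46, DNAJB1 of 1.98 and H2AFY2 of 1.97.

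The genes lower than in JPH4/JAKMIP1 cells were of another kind. OGDH, which encodes a subunit of the oxoglutarate dehydrogenase of the citric acid cycle, stood at 572 CPM in PON3/CLDN10 cells, 1516 in JPH4/JAKMIP1 cells, 3913 in OPTC/CCK/TMEM100 cells, 879 in CYP26A1 cells and 1294 in all other EL barcodes. It was 2.65-fold lower than in JPH4/JAKMIP1 cells (2.55 to 2.76) and 6.85-fold lower than in OPTC/CCK/TMEM100 cells (6.57 to 7.14). OGDH was thus the lowest of the epithelial sets in PON3/CLDN10 cells. DOCK9, which encodes an exchange factor for CDC42, was 2.59-fold lower, OGT, the enzyme that adds O-GlcNAc to proteins, 2.03-fold, PCLO, which encodes a large vesicle scaffold, 2.03-fold, and HECTD4, which encodes a putative ubiquitin ligase, 2.00-fold lower.

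Part of the difference from JPH4/JAKMIP1 cells went with the cluster a cell fell in. When all kept EL barcodes were clustered without the 8 rule genes, 379 PON3/CLDN10 cells (48.0%) and 430 JPH4/JAKMIP1 cells (17.8%) fell in a cluster led by F3, GADD45A, ID3, ZFP36L1 and KLF4. Within it FOS stood at 7458 CPM in PON3/CLDN10 cells and 7190 CPM in JPH4/JAKMIP1 cells (ratio 1.04), against 1.69 over the whole sets. GADD45A kept a ratio of 1.35 there, against 2.25 over the whole sets. It was a leading gene of that cluster, so this ratio is not independent of the clustering. In the clusters with 107 and 38 PON3/CLDN10 cells, GADD45A had ratios of 2.33 (1.70 to 3.25) and 2.70 (1.73 to 4.41). FOS had ratios of 1.11 and 1.10 in these clusters. In the remaining clusters with at least 20 cells of both sets GADD45A had ratios of 1.13 to 1.68. FOS had ratios of 1.18, 1.35 and 1.46 there, with intervals above 1.

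DCN and OGDH kept their difference inside that cluster. DCN stood at 399 CPM in PON3/CLDN10 cells and 186 CPM in JPH4/JAKMIP1 cells (2.14, 1.92 to 2.40), S100G at 204 CPM in PON3/CLDN10 cells and 122 CPM in JPH4/JAKMIP1 cells (1.67), and OGDH at 532 CPM in PON3/CLDN10 cells and 1071 CPM in JPH4/JAKMIP1 cells (0.497, 0.465 to 0.530). Other clusters gave other values. In the cluster with 127 PON3/CLDN10 and 844 JPH4/JAKMIP1 cells, IHH had a ratio of 1.06 (0.849 to 1.31), DCN of 1.31 and OGDH of 0.795. In a cluster of 340 cells with 107 PON3/CLDN10 and 109 JPH4/JAKMIP1 cells, S100G stood at 237 CPM in PON3/CLDN10 cells and 394 CPM in JPH4/JAKMIP1 cells, a ratio of 0.603. DCN had a ratio of 1.11 there (0.916 to 1.35). Over the 6 clusters with at least 20 cells of both sets, S100G was above 1 in 5, at 1.118 to 2.00. It was below 1 in the cluster of 340 cells alone. DCN was above 1 in all 6, at 1.11 to 8.45, and OGDH below 1 in all 6, at 0.366 to 0.814. The DCN ratio of 8.45 rested on 8 and 9 UMIs (2.84 to 24.7), and the cluster with 38 PON3/CLDN10 cells gave 1.34 (0.926 to 1.98). S100G intervals held 1 in the clusters with 127 and 27 PON3/CLDN10 cells (0.868 to 1.43 and 0.713 to 4.34). IHH was above 1 in all 6, at 1.06 to 2.97, and at 1.27 (1.14 to 1.41) in the cluster with 379 PON3/CLDN10 cells. IHH intervals held 1 in the clusters with 127, 107 and 27 PON3/CLDN10 cells. Over the 22 clusters PON3/CLDN10 cells fell in 17 and made up at most 33.4% of any, so they formed no cluster of their own.

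Against OPTC/CCK/TMEM100 cells 772 of 10977 genes were higher in PON3/CLDN10 cells (7.03%) and 623 lower (5.68%). DCN was 21.3-fold higher (16.2 to 28.8), ISM1 19.2-fold (12.7 to 30.5), LMO2 11.7-fold, MAL 10.8-fold, RAB33A 10.7-fold and LYPD1 9.95-fold. The levels of these genes in OPTC/CCK/TMEM100 cells were 7.58 to 29.7 CPM. The genes lower in PON3/CLDN10 cells were PDZK1, a scaffold of apical carriers, at 8.64 CPM in PON3/CLDN10 cells and 373 CPM in OPTC/CCK/TMEM100 cells (43.2-fold lower), CITED1, a transcriptional cofactor (26.7-fold), CDH13, a cadherin without a cytoplasmic part (20.6-fold), NMB (15.5-fold), DOCK9 (11.2-fold) and ITPRID2 (10.9-fold). Of 6 measured hedgehog genes IHH, DISP1 and SMO were higher and 0 lower, and of 12 retinoid genes RBP4, CRABP1, CRABP2, ALDH1A3, RARG and LRAT were higher and 0 lower.

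Against CYP26A1 cells 3013 of 12170 genes were higher in PON3/CLDN10 cells (24.8%) and 1405 lower (11.5%), and the median log2 ratio over all genes was 0.41. With TMM scaling, which moved that median by -0.40, 1848 were higher and 1977 lower, and with equal weight for every cell 1660 were higher and 1625 lower. The 6 leading higher genes of at least 100 CPM were DCN (16.3-fold), LYPD1 (15.1-fold), H2AFY2 (14.9-fold), SNCAIP (12.98-fold), RAB33A (12.95-fold) and RASGRP3 (12.6-fold). The leading lower genes were SLC6A15, an amino acid carrier, with 2 UMIs over the PON3/CLDN10 cells (609-fold lower, 168 to 5029), PTGES (249.8-fold, 127 to 579), SLC5A1, the sodium-glucose carrier (233-fold, 99.8 to 719), GEM (183-fold), CDH17 (179.5-fold) and UPK3A, a uroplakin (167-fold). IHH was 11.6-fold higher (10.2 to 13.2), ESR1 4.33-fold (4.07 to 4.61) and PGR 3.21-fold (2.74 to 3.75). Of 12 measured steroid genes ESR1, PGR, FKBP5, HSD11B2 and TSC22D3 were higher and NR3C2, PGRMC2 and SULT1E1 lower, and all 3 measured metallothioneins were higher.

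Of 28 measured immediate early genes, which cells switch on quickly after a stimulus, 3 were higher in PON3/CLDN10 cells than in all other EL barcodes (ZFP36L1, MYC and GADD45A), 1 was lower (SOCS3) and 23 had a ratio above 1. Against JPH4/JAKMIP1 cells 2 were higher, against OPTC/CCK/TMEM100 cells 14 and against CYP26A1 cells 18, with 0 lower in each. Among all genes measured the higher share was 3.45%, 1.23%, 7.03% and 24.8% in these 4 comparisons. FOS, a subunit of the transcription factor AP-1, stood at 5463 CPM in PON3/CLDN10 cells, 3233 in JPH4/JAKMIP1 cells, 2088 in OPTC/CCK/TMEM100 cells, 1785 in CYP26A1 cells and 3072 in all other EL barcodes. It was uneven within PON3/CLDN10 cells, at 2755 CPM in the shallowest of 4 depth classes and 1650 to 8628 CPM over their sub-clusters. GADD45A, a gene of the growth arrest and DNA damage response, stood at 836 CPM in PON3/CLDN10 cells, 371 in JPH4/JAKMIP1 cells, 170.5 in OPTC/CCK/TMEM100 cells, 131 in CYP26A1 cells and 319 in all other EL barcodes. DNAJB1, a heat shock cochaperone, was 2.01-fold higher than in all other EL barcodes (1.96 to 2.06). Of 24 measured heat shock and unfolded protein genes HSPB8 and DNAJB1 were higher, HSPA1L and CHAC1 lower, and 21 had a ratio above 1. Among all genes measured 3.45% were higher and 16.5% lower. The median log2 ratio was 0.43 for this list and 0.23 for the immediate early list, against -0.05 for all genes measured.

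Of 35 ribosomal protein genes 0 were past 2-fold against all other EL barcodes and 33 had a ratio above 1. Of 32 nuclear genes of oxidative phosphorylation 0 were past 2-fold and 28 had a ratio below 1. The median log2 ratios of these lists were 0.27 and -0.33, against -0.05 for all genes measured. Against JPH4/JAKMIP1 cells 29 of the 32 oxidative phosphorylation genes had a ratio above 1, with a median log2 ratio of 0.15 against -0.20 for all genes. Against CYP26A1 cells 10 of the 32 were lower, with a median log2 ratio of -0.73 against 0.41 for all genes. The direction of these genes thus turned with the set compared. Of 24 measured genes of the paraoxonase and detoxification list, PON3, by the rule, and ALDH2 were higher than in all other EL barcodes. MGST1, NQO1 and UGT1A6 were lower, beside 3.45% higher and 16.5% lower among all genes measured. MGST1, a glutathione transferase of membranes, stood at 226 CPM in PON3/CLDN10 cells and 1800 CPM in all other EL barcodes.

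**Figure D3:**
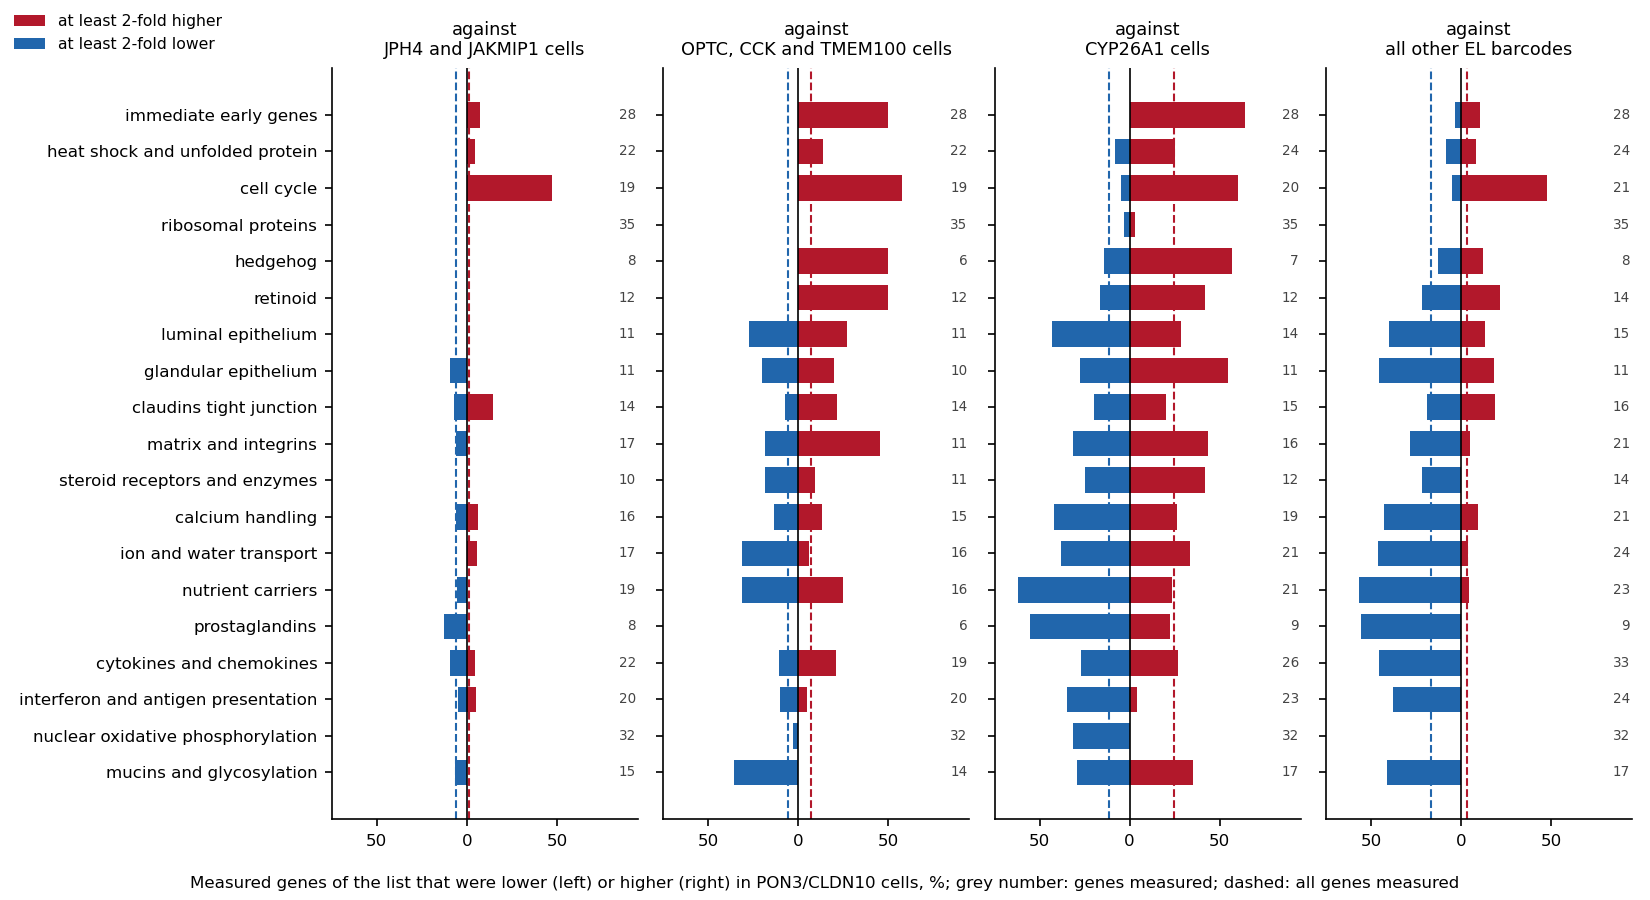
Percent of the measured genes of each list shown that were at least 2-fold higher (right, red) or lower (left, blue) in PON3/CLDN10 cells against each of 4 comparison sets, with the number measured in grey and the percent among all genes as dashed lines. Immediate early genes lie to the right in the panels for OPTC/CCK/TMEM100 and CYP26A1 cells (14 and 18 of 28), and prostaglandin genes to the left against CYP26A1 cells and all other EL barcodes (5 of 9 each).

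The PON3/CLDN10 cells were not uniform. Clustering them alone gave 6 groups, whose leading genes came from the same cells and are a description. The largest, of 222 cells, was led by KLF4, DNAJB4, GADD45A, ID1 and F3, and FOS stood at 8628 CPM and IHH at 346 CPM in it. A group of 147 cells with a low median of 2825 UMIs was led by PATZ1, RHOF, SNRNP70, BIRC6 and LAMB2, with FOS at 1650 CPM and OGDH at 1226 CPM. A group of 191 cells was led by NMB, SLC25A1, SAL1, FGF12 and ISM1, and 106 of its 166 NMB UMIs came from 1 cell. IHH was found in all 6 groups, at 171 to 346 CPM.

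A group of 133 cells had the highest S100G (266 CPM) and DCN (528 CPM). Its leading genes were CCL4, FCGR3A, SLA-DRA1, LGALS1 and PPA1, yet CCL4, a chemokine, had UMIs in only 4 of its cells, FCGR3A, an immunoglobulin receptor, in 14, and SLA-DRA1, a class II antigen-presentation gene, in 11. T or NK markers summed to 86.5 CPM and macrophage markers to 173 CPM in this group, so a few of its barcodes carried leukocyte transcripts.

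A group of 64 cells was led by the ciliary genes SNTN, C11orf88, TEKT2 and MORN5 together with STEAP2. SNTN had a UMI in 56 of the 64 cells, and ciliated markers summed to 2231 CPM, against 48.9 to 63.6 CPM in the other groups. These cells had a median of 10830 UMIs, and 35 of the 64 were among the highest doublet scores of the library, against 0 to 8 cells in each of the other groups. FAM162B (961 CPM), S100G (90.7 CPM) and DCN were at their lowest in this group. The part of doublets in these values was not tested.

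A group of 32 cells was led by CDCA3, TK1, AURKB and CCNB2, genes of the cell division cycle, and by IGFBP6. All 77 IGFBP6 UMIs of this group came from 1 cell, which also held 71 of its 167 DCN UMIs. CDCA3 had a UMI in 24 of the 32 cells, HMGB2 stood at 1848 CPM against 58.1 to 249.5 CPM in the other groups, and 0 of the 32 were among the highest doublet scores. This group set the cell cycle counts of the PON3/CLDN10 cells. Of 21 measured cell cycle genes 10 were higher than in all other EL barcodes and CDKN2B was lower, beside 3.45% and 16.5% among all genes measured. CENPF, a kinetochore protein, stood at 90.8 CPM in PON3/CLDN10 cells and 10.7 CPM in all other EL barcodes (8.47-fold, 7.39 to 9.71), in 49 of the 789 cells. Without this group and the ciliary group, 0 of the cell cycle genes were higher and 8 lower, against a set from which dividing cells had not been removed. In the clustering of all EL barcodes 38 PON3/CLDN10 cells (4.82%) fell in the cluster led by mitotic genes, against 0.953% of JPH4/JAKMIP1 cells, 0.746% of OPTC/CCK/TMEM100 cells and 0.890% of CYP26A1 cells. Those 38 cells had a median of 10358 UMIs, the 23 JPH4/JAKMIP1 cells there 5883, and all 180 barcodes of that cluster 1360. The part of depth in these shares was not tested.

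**Figure D4:**
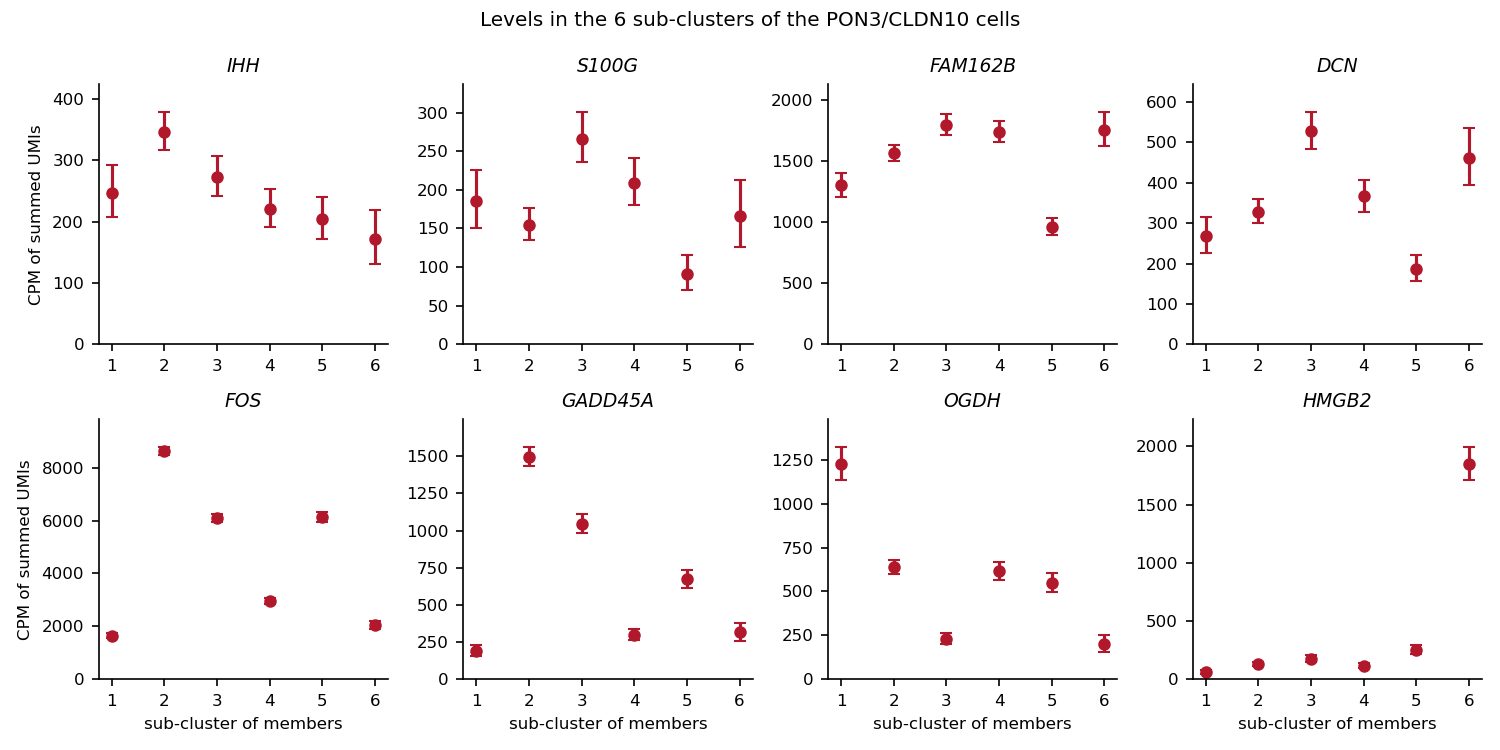
Levels in CPM of summed UMIs (linear axes from 0) of 8 genes in the 6 sub-clusters of the 789 PON3/CLDN10 cells, with exact Poisson 95% intervals. Sub-cluster 2 has the highest FOS (8628 CPM) and IHH (346 CPM), sub-cluster 5, the ciliary one, has the lowest FAM162B and S100G, and sub-cluster 6, the dividing one, has the highest HMGB2 (1848 CPM).

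Some matrix transcripts rested on a single cell. COL1A1, COL1A2 and COL3A1, the fibrillar collagens of fibroblasts, named after their values were seen, were higher in PON3/CLDN10 cells than in OPTC/CCK/TMEM100 cells. A cell of 9409 UMIs held 154 of 171 COL1A1 UMIs, 189 of 213 COL1A2 UMIs, 210 of 256 COL3A1 UMIs and 77 of 83 IGFBP6 UMIs, together with 71 DCN UMIs, 1 PON3 UMI, 5 CLDN10 UMIs and 0 IHH UMIs. It fell in the sub-cluster led by cell cycle genes. Without this cell COL1A1 stood at 3.42 CPM in PON3/CLDN10 cells and 29.4 CPM in all other EL barcodes (0.116, 0.0676 to 0.187), COL1A2 at 4.83 CPM in PON3/CLDN10 cells and 32.9 CPM in all other EL barcodes, and DCN at 345 CPM in PON3/CLDN10 cells. DCN was therefore not carried by the cell that held the collagens.

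**Figure D5:**
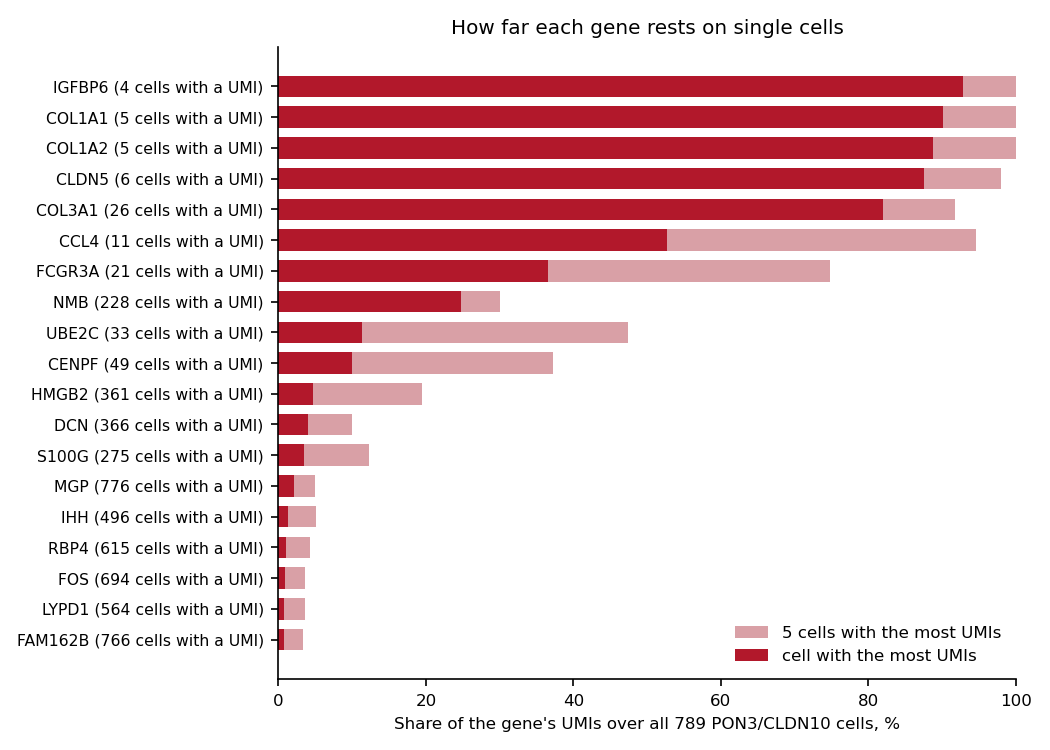
Share in percent of each gene's UMIs over the 789 PON3/CLDN10 cells that came from the cell with the most UMIs of the gene (dark) and from the 5 cells with the most (light), with the number of cells with a UMI in brackets. IGFBP6, the collagens and CLDN5 come mostly from 1 cell, while FAM162B, LYPD1, FOS, RBP4, IHH, MGP, S100G and DCN each have under 4% of their UMIs in 1 cell.

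Levels of some genes differed between depth classes of the PON3/CLDN10 cells, and the part of depth itself was not tested. The cells were split into 4 depth classes with medians of 2564, 4311, 6471 and 10852 UMIs. From the shallowest to the deepest class IHH stood at 285, 326, 248 and 247 CPM, S100G at 173, 196, 224 and 156 CPM, and DCN at 320.5, 318, 415 and 351 CPM, with no steady course in any of the 3. OGDH stood at 939, 777, 464 and 482 CPM and FOS at 2755, 6722, 5773 and 5394 CPM, so the shallowest class had the highest OGDH and the lowest FOS. PON3, which the rule used, stood at 595, 456, 395 and 279 CPM.

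The rule was met by 789 of 10797 kept barcodes in EL (7.31%) and by 1 of 8669 in EIS (0.0115%, exact Clopper-Pearson interval 0.000292 to 0.0643%). The EIS barcode had 18474 UMIs and 4715 genes, 1 PON3 UMI, 4 CLDN10 UMIs, 3 FAM162B UMIs, 0 IHH UMIs, 0 S100G UMIs and 1052 UMIs of SLPI, the leading gland product of that library. DCN was also at 0. The barcode had at least 5 T or NK marker UMIs and was among the highest EIS doublet scores.

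The genes of the PON3/CLDN10 cells were not all low in EIS. PON3 stood at 369.5 CPM in PON3/CLDN10 cells and 0.334 CPM over all kept EIS barcodes, LYPD1 at 295 CPM in PON3/CLDN10 cells and 0.390 CPM over the EIS barcodes, and RAB33A at 109.5 CPM in PON3/CLDN10 cells and 0.195 CPM over the EIS barcodes. IHH (14.02 CPM), S100G (11.5 CPM) and FAM162B (29.9 CPM) were lower over the EIS barcodes than in all other EL barcodes. DCN, RBP4 and DAB2 had the reverse order. DCN stood at 359 CPM in PON3/CLDN10 cells and 1161 CPM over the EIS barcodes, RBP4 at 437 CPM in PON3/CLDN10 cells and 5648 CPM over the EIS barcodes, and DAB2 at 123 CPM in PON3/CLDN10 cells and 396 CPM over the EIS barcodes. ALDH1A3 stood at 675 CPM in PON3/CLDN10 cells and 5.99 CPM over the EIS barcodes. The EIS values are whole-library sums over all its cell types and not those of a matched epithelial set.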

How the data were processed

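The deposited matrices hold UMI counts, whole numbers for every gene in each barcode, per the file headers. Cell Ranger 2.1.1 was named by the submitters' processing notes and cellranger 6.1.0 by the matrix header. The genome build was not given in the sources used here. Per the labels' protocols, endometrium was digested with collagenase and protease, filtered and freed of red cells, which can set the cells recovered.

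Barcodes with at least 500 UMIs and 300 genes were kept, and features of the same symbol were summed. Counts were summed over each set of cells and scaled to CPM, with exact Poisson intervals for levels, exact Clopper-Pearson intervals for shares and exact conditional intervals for ratios, all at 95%. Genes with at least 30 UMIs in both sets together were measured. The self-test on simulated Poisson counts recovered 99.5% to 100% of 200 changed genes. These were well-counted genes changed by more than 2-fold, without any spread between cells. It therefore cannot judge calls near 2-fold, genes of few UMIs or genes that rest on single cells. Doublets were scored with Scrublet in scanpy 1.11.5 and not removed. Its automatic threshold marked 0 EL barcodes, so the top 0.8% per 1000 barcodes (933 in EL, 55 of them PON3/CLDN10 cells) were taken as the highest scores. Sub-clusters used igraph 0.11.9 leiden at resolution 0.5.

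The members, gene lists and comparison sets were chosen with earlier results of these data known. Genes were named by a rule: the rule genes and 5 markers, the 15 largest and 10 smallest ratios against all other EL barcodes, the 6 largest and 6 smallest against each other set (with a symbol, and in the higher set at least 30 UMIs and 100 CPM), up to 4 per list with at least 50 CPM, 5 per sub-cluster, and any gene of 5 lists (luminal, hedgehog, calcium, tight-junction and steroid genes). The ratio ranks left out genes of haemoglobin, ribosomal proteins, T cell receptors and immunoglobulins. Of the 6 smallest ratios against JPH4/JAKMIP1 cells 5 are given, and the other is not reported here. Other genes, named to spell out a short count or to describe single cells, were chosen after their values were seen. Alternatives were another count minimum, TMM scaling (edgeR 4.0.16, R 4.3.3), equal weight per cell, thinning, doublet removal, stricter rules and leaving out sub-clusters 5 and 6.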

Additional observations from a re-analysis of the deposited data

How the results depend on the processing

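With no minimum of UMIs, 1531 genes were higher and 6432 lower in PON3/CLDN10 cells than in all other EL barcodes, 1182 and 3833 against JPH4/JAKMIP1 cells, 3616 and 2094 against OPTC/CCK/TMEM100 cells, and 6288 and 3450 against CYP26A1 cells. With at least 100 UMIs, 324 were higher than in all other EL barcodes, 61 higher and 299 lower than in JPH4/JAKMIP1 cells, and 375 higher and 404 lower than in OPTC/CCK/TMEM100 cells. TMM scaling left 457 lower against JPH4/JAKMIP1 cells and 1848 higher against CYP26A1 cells, so the share of called genes that was higher became 32.1% in place of 17.0% and 48.3% in place of 68.2%. Equal weight for every cell gave 271 higher genes and 24 higher list genes against all other EL barcodes, in place of 39 list genes, with the median shifted by -0.13, and 1660 higher genes against CYP26A1 cells. Thinning gave 228 higher genes against all other EL barcodes, 91 against JPH4/JAKMIP1 cells and 1797 against CYP26A1 cells.

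Without sub-clusters 5 and 6, an alternative chosen after seeing the data, 58 genes were higher and 1265 lower against JPH4/JAKMIP1 cells (4.4% of called genes higher), and 42.7% of called genes in place of 55.3% were higher against OPTC/CCK/TMEM100 cells. The log2 ratio against all other EL barcodes then turned to -1.42 for AURKB, -2.76 for CCNB2, -3.21 for CDCA3, -0.48 for CENPF, -3.22 for TK1, -0.54 for TPX2, -1.54 for UBE2C and -1.57 for CLDN5. CLDN5 also turned to -0.032 with equal weight for every cell and to -2.64 with at least 2 PON3 and 3 CLDN10 UMIs. Of 3003 recomputed ratios of named genes over 11 settings, 2297 kept their value within the counting interval of the main one, 696 moved and 10 reversed. The settings with no minimum and with at least 100 UMIs change only which genes are counted. Their ratios could not move and are among the 2297. Leaving genes over 1% of UMIs out of the totals also changed nothing against all other EL barcodes.

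A stricter rule kept fewer cells: 473 with at least 2 PON3 UMIs, 348 when barcodes were thinned to 2000 UMIs before the rule, and 323 when PON3 and CLDN10 had to exceed 2 times each competing sum. No EIS barcode passed (0) once the highest doublet scores were removed. At resolution 1.0 there were 9 sub-clusters in place of 6. No paired analysis was possible because each group was 1 library from 1 sow. Counting sets the precision within the EL library, and no value here measures the spread between sows.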
